A study of Mus musculus with 18 samples.

Results

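In all, 8 genes grouped here as airway secretory genes, several of them also made by other cells, were followed through cultures made to yield osteoblasts: *Bpifa1*, *Scgb1a1*, *Scgb3a1*, *Scgb3a2*, *Sftpd*, *Cyp2f2*, *Cbr2* and *Ces1d*. They are 8 of the 20202 gene symbols in the 3 count tables. Of these, *Bpifa1*, *Cbr2*, *Cyp2f2* and *Ces1d* were chosen by their counts, which were very much higher in osteoblasts derived from embryonic stem cells (ESC) than in ESC. That contrast is therefore described without a test for any of the 8. The other 4 genes were joined to them as further airway products.

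The libraries came from mice and ESC lines that carry the Col2.3GFP transgene, in which a fragment of the *Col1a1* promoter drives green fluorescent protein (GFP) in maturing osteoblasts. The 6 populations, with 3 libraries each, were bone GFP- and bone GFP+ (hi) cells sorted fresh from long bone, bone chip GFP- and bone chip GFP+ (hi) cells sorted after osteogenic differentiation of cultured bone chips, ESC, and the GFP+ (hi) cells sorted after osteogenic differentiation of ESC (ESC-OB GFP+). The labels call all GFP+ (hi) cells osteoblasts and the GFP- cells a heterogeneous population, and they give no age or sex of the animals. The ESC carry osteogenic differentiation in their treatment label too, although their titles and the paper present them as stem cells. The sources do not say whether the libraries of a population came from separate animals or cultures, so the p-values given here measure the spread between these libraries, which may be technical.

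The airways are lined by a sheet of basal, secretory and ciliated cells. The secretory (club) cells release small proteins such as secretoglobins and BPI-fold proteins into the airway fluid, where they serve host defence, and they carry oxidizing and reducing enzymes that act on inhaled compounds. Forkhead factors of the FOXA group and the homeobox factor NKX2-1 set up the lung lineage, which arises from endoderm, whereas osteoblasts arise from mesenchyme or neural crest.

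Upstream sequence was available for 4 of the 8 genes, as 250 bases before to 50 bases after the start in RefSeq (GRCm38.p6). Those of *Bpifa1*, *Cyp2f2* and *Cbr2* are shown because these genes were chosen for one and the same pattern of counts. Capitals mark matches, on either strand, to a TATA box (TATAAA), the forkhead core TNTTTAC or the NKX2-1 core CACTTG, and TTGCNNAA, the C/EBP core, was searched too. The sequences are those of *Bpifa1* (chr2:154142630-154142929, plus strand), *Cyp2f2* (chr7:27119705-27120004, plus strand) and *Cbr2* (chr11:120731972-120732271, minus strand):
Bpifa1: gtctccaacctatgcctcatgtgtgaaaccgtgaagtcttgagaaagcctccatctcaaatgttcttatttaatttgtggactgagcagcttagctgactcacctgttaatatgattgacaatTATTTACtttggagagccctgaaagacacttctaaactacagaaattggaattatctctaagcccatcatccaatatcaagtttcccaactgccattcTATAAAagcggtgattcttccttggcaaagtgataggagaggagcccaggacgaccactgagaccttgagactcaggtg
Cyp2f2: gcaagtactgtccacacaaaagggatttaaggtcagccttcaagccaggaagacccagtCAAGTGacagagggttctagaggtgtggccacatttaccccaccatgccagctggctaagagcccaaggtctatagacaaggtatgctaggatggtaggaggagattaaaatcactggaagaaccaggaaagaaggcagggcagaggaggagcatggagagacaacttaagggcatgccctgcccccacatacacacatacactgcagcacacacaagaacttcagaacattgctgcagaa
Cbr2: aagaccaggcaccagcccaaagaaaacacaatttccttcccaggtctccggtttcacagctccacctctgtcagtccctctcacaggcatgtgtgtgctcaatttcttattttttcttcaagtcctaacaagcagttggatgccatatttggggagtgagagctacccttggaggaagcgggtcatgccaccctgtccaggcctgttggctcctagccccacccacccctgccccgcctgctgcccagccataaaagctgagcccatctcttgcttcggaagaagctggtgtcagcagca

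*Bpifa1* holds a TATA box that begins at -29 and a forkhead core that begins at -127, counted from the start. *Cyp2f2* holds the NKX2-1 core on the opposite strand from -191, and *Scgb3a1*, the fourth gene with an entry, holds it from -174. None of the 4 motifs matched in *Cbr2*. Of 32851 such windows, 13.6% hold TATAAA, 12.4% hold TNTTTAC, 13.6% hold CACTTG and 10.8% hold TTGCNNAA, so single matches are common. No motifs overlapped in the windows shown.

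Several features of the libraries come before the results. Total counts were 4920977 to 43874837. Among the ESC-OB GFP+ cells, which are labelled osteoblasts, *Ibsp*, which encodes bone sialoprotein, was at 0.587 CPM (counts scaled to library size) in replicate 1, 1380 in replicate 2 and 242.9 in replicate 3. *Bglap*, which encodes osteocalcin, was at 0.0691, 1.32 and 0.0805 CPM, and *Sp7*, an osteoblast transcription factor, at 0.415, 5.39 and 0.885 CPM, against 54160 to 75240 CPM of *Bglap* and 258 to 316 CPM of *Sp7* in bone GFP+ (hi) cells. All 3 ESC-OB libraries thus lay far under bone GFP+ (hi) cells in *Bglap* and *Sp7*, a comparison across sources that the scaling does not join. Of 12 tested genes of the osteoblast list, 8 were called higher than in ESC and 1 lower, where 43% of all genes tested were higher. *Col1a1*, whose promoter drives the GFP, was at 2975, 7303 and 5564 CPM, from a mean of 9.99 in ESC. The gene called lower was *Alpl*, from a mean of 313.3 to 36.9 CPM. Replicate 1 stood apart from the others in *Ibsp*, so that results from ESC-OB are also given without it. In *Bglap* and *Sp7*, however, replicate 2 stood apart and replicates 1 and 3 were close, so the choice of replicate 1 rests on *Ibsp*. In fresh bone, transcripts of 4 Y-linked genes summed to 73.1 to 133.5 CPM in the GFP- libraries but to 0.192, 62.4 and 0.433 CPM in GFP+ (hi) replicates 1, 2 and 3, so that the 2 other GFP+ (hi) libraries differed from all GFP- libraries in these transcripts as well as in GFP, and replicate 2 in GFP without that difference. The part of sex in the bone comparison was not tested. Levels are TMM-scaled CPM, comparable within bone, within bone chips and within the ESC pair, unless plain CPM or RPKM, which also divides by the length of the exons, is named. The medians of all log2 fold changes were near 0 in bone and bone chips and 0.22 in ESC-OB GFP+ cells against ESC.

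In ESC-OB GFP+ cells, *Bpifa1*, *Cbr2*, *Cyp2f2*, *Ces1d* and *Scgb1a1* all stood above 100 CPM on average, whereas each was at 2 counts or fewer over the 3 ESC libraries together. *Sftpd* stood near 41 CPM, *Scgb3a1* at a few CPM, and *Scgb3a2* was barely counted. Together the 8 genes took 0.324, 0.258 and 0.235% of all counts in the 3 ESC-OB GFP+ libraries and at most 4.06e-05% in ESC.

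**Figure D1:**
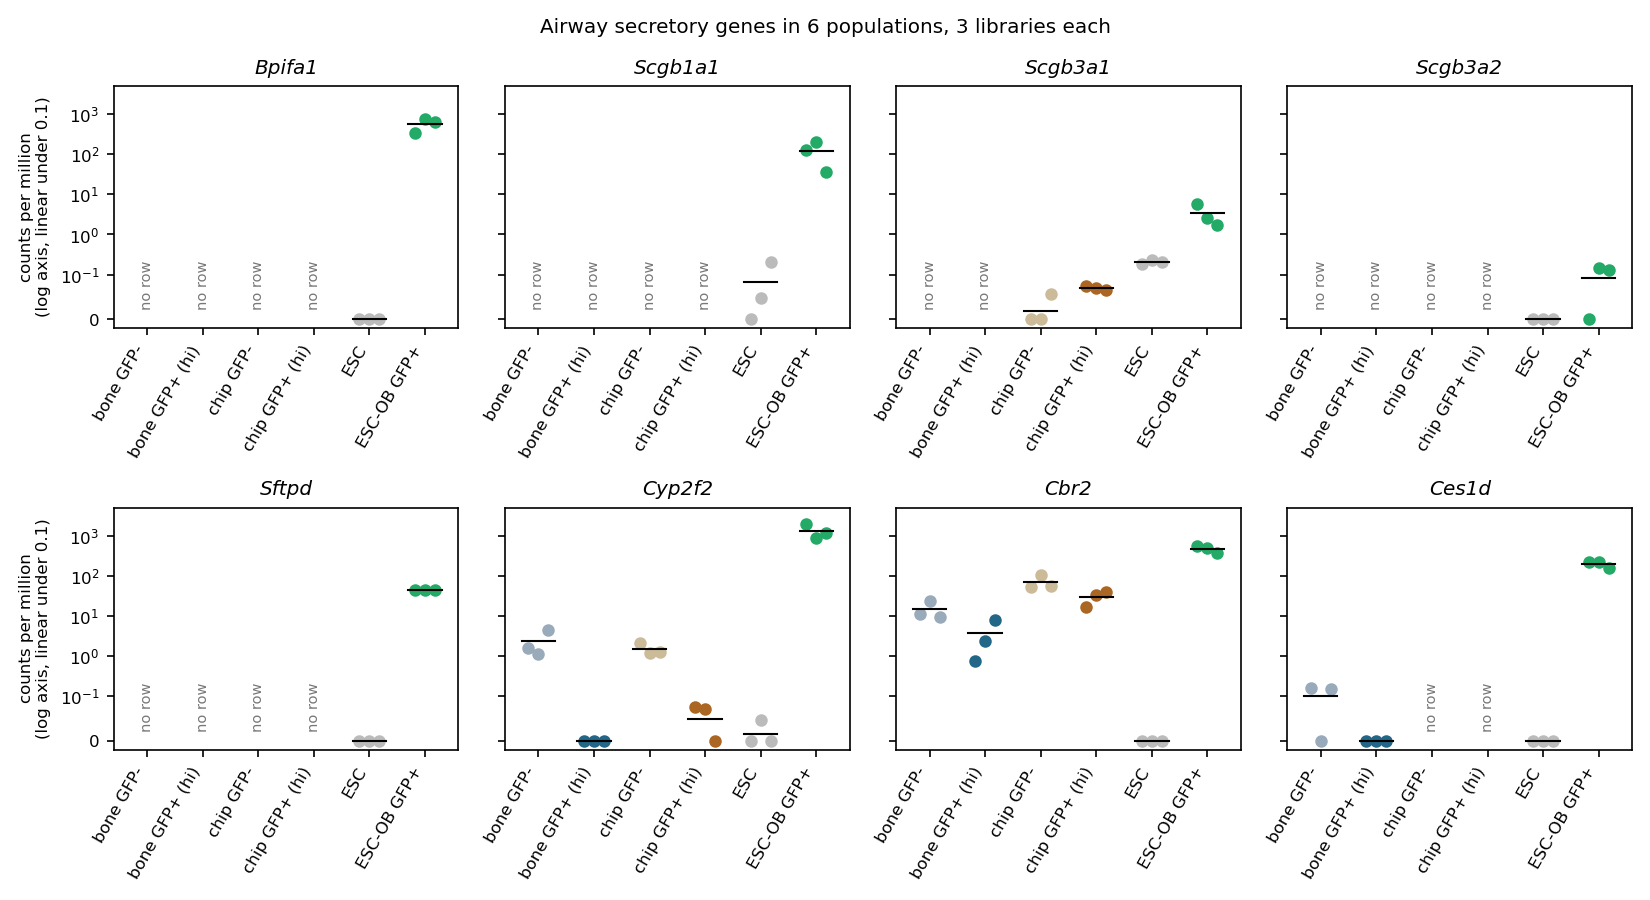
Plain CPM of the 8 genes (log axis, linear under 0.1) in each of the 18 libraries, with a point per library and a bar at the mean of each population. All 8 genes have their highest mean in ESC-OB GFP+ cells, "no row" marks a table without the gene, and *Cbr2* is the one gene above 1 CPM on average in all 4 bone and bone chip populations.

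Of the secreted host defence proteins, *Bpifa1* encodes an antimicrobial BPI-fold protein of the upper airways and lies at chr2:153968616-153974955 (plus strand; positions of genes are those of GENCODE vM1 on mm9). It was at 314.9, 716 and 579.6 CPM in ESC-OB GFP+ replicates 1, 2 and 3 (mean 537 ± 204, SD, n = 3) and had no count in any ESC library. Measured against the level that 3 counts over the ESC group would give, it was at least 4870-fold higher. Without ESC-OB replicate 1 its mean was 647.8 CPM. Neither the bone table nor the bone chip table has a row for it. The smallest row total in those tables is 2 counts, so that an absent row gives no level.

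The secretoglobins are small secreted proteins by which club cells are commonly recognized. *Scgb1a1* (chr19:9158126-9162448, minus strand) was at 117.4, 186.9 and 33.95 CPM in ESC-OB GFP+ replicates 1, 2 and 3 (mean 113 ± 76.6, SD, n = 3), with counts of 0, 1 and 1 in ESC. The ratio of summed levels was 1554, with a 95% counting interval of 430 to 12830. This was the widest spread of the members above 10 CPM, the highest library standing 5.51-fold above the lowest, and the mean without replicate 1 was 110.5 CPM.

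*Scgb3a1* (chr11:49477112-49478620, plus strand) was at 5.32, 2.42 and 1.57 CPM in ESC-OB GFP+ replicates 1, 2 and 3, with counts of 1, 5 and 1 in ESC. Its ratio was 13.1 (95% counting interval 6.26 to 32.9), and the mean of 3.10 CPM became 1.99 CPM without replicate 1, which held 154 of its 246 counts. The libraries of both groups did not overlap. *Scgb3a2* had 0, 3 and 3 counts in ESC-OB GFP+ cells and none in ESC, and did not pass the filter on low counts. Its share of the libraries was too small for a fold to be given at this depth.

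*Sftpd* (chr14:41985501-41998487, minus strand) encodes surfactant protein D, a collectin made in alveolar and airway cells. It was at 40.56, 41.17 and 40.96 CPM in ESC-OB GFP+ replicates 1, 2 and 3, the most even of the members, with no count in ESC. It was at least 384-fold higher. The mean of 40.9 CPM was 41.06 CPM without replicate 1.

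Among the enzymes, *Cyp2f2* (chr7:27904928-27918679, plus strand), encodes a cytochrome P450 of club cells. It was at 1786, 823.7 and 1051 CPM in ESC-OB GFP+ replicates 1, 2 and 3 (mean 1220 ± 503, SD, n = 3) against a single count over the ESC libraries, a ratio of 35730 with a 95% counting interval of 6413 to 1411000. Leaving out replicate 1, the library with the highest value, gave a mean of 937.4 CPM.

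*Cbr2* (chr11:120590803-120593428, minus strand) encodes a carbonyl reductase abundant in lung. Values were 510.7, 454.1 and 333.8 CPM in ESC-OB GFP+ replicates 1, 2 and 3 (mean 433 ± 90.3, SD, n = 3) and 0 counts in every ESC library, at least a 4100-fold difference. *Ces1d* (chr8:95689967-95721737, minus strand) encodes a carboxylesterase that splits esters and lipids in lung, liver and fat. It was at 198.9, 207.6 and 141.1 CPM (mean 183 ± 36.1, SD, n = 3) and without a count in ESC, at least 1720-fold higher. Without ESC-OB replicate 1 the means were 394 CPM for *Cbr2* and 174.4 CPM for *Ces1d*. The carboxylesterases of its cluster are near copies, and the sources used here do not say how reads that fit several genes were counted, so the split between them is uncertain.

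Scaled by exon length, the order in ESC-OB GFP+ cells was *Cyp2f2* (603 RPKM), *Bpifa1* (348), *Cbr2* (326), *Scgb1a1* (237), *Ces1d* (77.1), *Sftpd* (29.4), *Scgb3a1* (5.19) and *Scgb3a2* (0.10 RPKM). The libraries of *Cyp2f2*, *Bpifa1*, *Cbr2*, *Scgb1a1* and *Ces1d* overlapped with those of their neighbours in this order, as between *Bpifa1* at 203.8 to 463.4 RPKM and *Cbr2* at 251.6 to 384.8 RPKM. From *Ces1d* (lowest library 59.57 RPKM) to *Sftpd* (highest 29.62 RPKM), and from there to each later gene, they were apart. In bulk RNA, a few cells with much of a transcript and many cells with little of it cannot be told apart.

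The 3 ESC-OB GFP+ libraries did not rank the members alike. *Cyp2f2* was highest in replicate 1 and lowest in replicate 2, at 0.581 times the mean of the other 2 libraries. *Bpifa1*, *Ces1d* and *Scgb1a1* were highest in replicate 2, where *Scgb1a1* stood at 2.47 times that mean. Without replicate 2 the means were 447.3 CPM for *Bpifa1*, 170 for *Ces1d*, 75.67 for *Scgb1a1* and 1418 for *Cyp2f2*. *Cbr2* was highest in replicate 1 and lowest in replicate 3, 1.53-fold apart, and *Sftpd* differed between libraries by 1.015-fold. Marker genes of other cells moved between the same libraries: of the genes at 10 CPM or more, 33 of 37 of general epithelium and 15 of 16 of basal and stratified epithelium were lowest in replicate 2, against 40.5% of 10041 genes in all, while 8 of 10 osteoblast genes and 6 of 9 hepatocyte genes were highest there, against 35.5%. Of the 23 other airway secretory genes at this level, 15 were highest in replicate 1 and 7 in replicate 2, and 12 were lowest in replicate 2. The part of the cell types of these lists in the levels of the members was not tested.

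**Figure D2:**
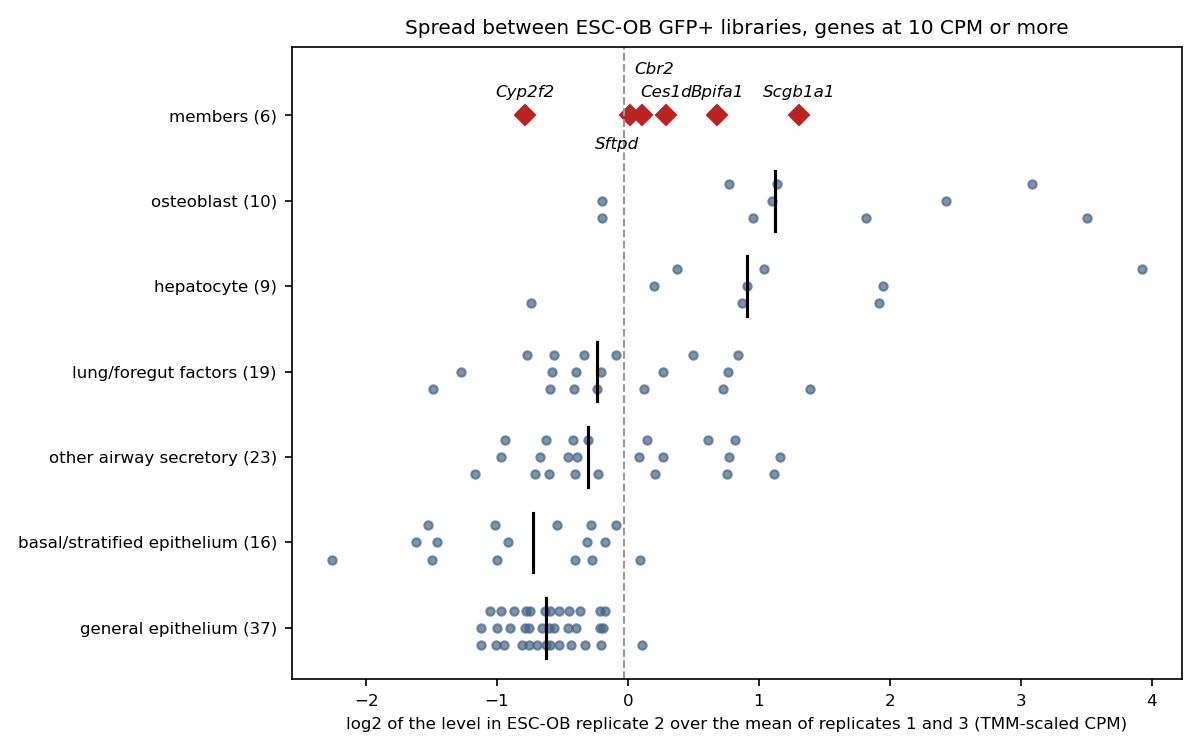
Log2 of the level in ESC-OB GFP+ replicate 2 over the mean of replicates 1 and 3 (TMM-scaled CPM), for the 6 members (diamonds) and the genes of 6 marker lists (dots, with a bar at the median of each list) at 10 CPM or more; the dashed line is the median of all such genes. *Cyp2f2* lies left of the line among the epithelial genes, and *Bpifa1* and *Scgb1a1* lie right of it, where most osteoblast and hepatocyte genes are. The medians of the other airway secretory genes and of the lung and foregut factors, at ratios of 0.811 and 0.851, lie left of the line.

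Other products of airway secretory cells were also higher in ESC-OB GFP+ cells. Of the 40 listed genes, which leave out the members, 39 had a row, 35 passed the filter, 33 were higher and 0 lower (edgeR quasi-likelihood test with Benjamini-Hochberg adjusted p under 0.05), where 43% of all 15417 genes tested were higher and 34.7% lower. Of the 35 tested, 8 had no count in ESC or in ESC-OB, so that a single direction of call was open to them. The shares hold for the other lists in ESC-OB too, and the limit for any of their genes without a count in a group. All lists were chosen with earlier results of these data known, so that their counts are no independent support. The median log2 fold change of the list was 7.60, or 6.25 with genes at 0 set to their bound, beside that shift of 0.22 over all genes tested. The count of genes called lower was also 0 at an unadjusted p under 0.05 and with DESeq2. Without ESC-OB replicate 1, 33 were higher.

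*Ltf*, which encodes the antimicrobial lactoferrin, rose to 838.7, 659.5 and 703.6 CPM from a single count in ESC, a ratio of 20950 (95% counting interval 3760 to 827500, adjusted p = 8.44e-09). The lectin gene *Reg3g* was at 19.76, 56.87 and 78.61 CPM and the cytochrome P450 gene *Cyp2b10* at 66.92, 34.41 and 37.86 CPM, with no count in ESC. These made them at least 469-fold and at least 451-fold higher (adjusted p = 1.01e-05 and 8.01e-07). *Cyp4b1*, a cytochrome P450 of the lung, was at least 159-fold higher, at a mean of 17.3 CPM (adjusted p = 2.07e-06).

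The mucin gene *Muc5b* rose from a mean of 0.295 to 5.48 CPM (log2 fold change 4.10, SE 0.70, adjusted p = 0.000301). *Bpifb1*, a BPI-fold protein of airway and nasal glands that is often used as a marker of these cells, was at 0.449, 0.137 and 0.563 CPM in ESC-OB GFP+ cells and at 1.29, 0.555 and 0.419 CPM in ESC, which overlapped. It did not pass the test (adjusted p = 0.25).

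Genes of ciliated cells, the neighbours of secretory cells in the airway, were higher in 19 and lower in 2 of 27 tested (20 and 2 without ESC-OB replicate 1). *Foxj1*, the master factor of motile cilia, rose from a mean of 0.628 to 22.7 CPM (adjusted p = 3.71e-06), and the cilium genes *Tmem212* and *Dynlrb2* were at least 50.9-fold and at least 28.4-fold higher, at means of 5.47 and 3.02 CPM. *Tekt1*, which encodes a filament of the axoneme, rose from 0.696 to 3.74 CPM (adjusted p = 0.00101), while *Hydin*, also of the axoneme, fell from 23.4 to 1.17 CPM. Over the whole list of 30 genes the summed level was 118 to 144 CPM in ESC and 155 to 212 CPM in ESC-OB GFP+ cells.

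Alveolar genes were higher in 15 and lower in 3 of 20 tested (18 and 3 without ESC-OB replicate 1). The largest rises were those of *Cav1*, a membrane protein of many cell types, and of the water channel gene *Aqp5*, also made by glands. The surfactant genes *Sftpc* and *Sftpb*, which define alveolar type 2 cells, were close to 0. *Sftpc* was at 0.0691, 1.00 and 0.0402 CPM and *Sftpb* at 1.04, 0.411 and 0 CPM. Other genes of type 2 cells differed in direction. By the ratio of summed levels, *Abca3* was 6.92-fold, *Slc34a2* 98.9-fold and *Napsa* 2.32-fold higher. *Lpcat1* was lower, at a ratio of 0.359, and *Lamp3* was at 0.730 (counting interval 0.437 to 1.25). *Ager*, a gene of alveolar type 1 cells, rose from a mean of 0.312 to 57.9 CPM (adjusted p = 1.5e-08). *Etv5*, a transcription factor that ESC also express, fell from 543.5 to 11.7 CPM. The list summed to 803 to 1102 CPM in ESC and 2545 to 3147 CPM in ESC-OB GFP+ cells.

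Of 28 tested transcription factors of lung and foregut, 21 were higher and 4 lower, the latter count being 2 without ESC replicate 3, ESC-OB replicate 1 or ESC-OB replicate 2. *Nkx2-1* had no count in ESC and was at 2.32, 1.51 and 2.25 CPM in ESC-OB GFP+ cells, at least 19.4-fold higher (adjusted p = 0.000151). *Foxa1* rose from a mean of 0.141 to 64.6 CPM and *Foxa2* from 0.0984 to 32.8 CPM (adjusted p = 2.34e-08 and 1.43e-07). *Sox9*, *Irx3* and *Sox17*, factors that act in other tissues as well, rose to means of 68.4, 38.7 and 144 CPM, and *Foxp2*, without a count in ESC, was at least 176-fold higher, while *Sox2* fell by 5.13 on the log2 scale from 487.7 CPM in ESC, where it maintains pluripotency. Of the 15 pluripotency genes, all tested, 15 were lower, or 14 without ESC-OB replicate 1.

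Epithelial genes in general were high. Of 38 tested genes shared by many epithelia, 33 were higher and 1 lower, with or without ESC-OB replicate 1, and the list summed to 1034 to 1162 CPM in ESC and 6404 to 10930 CPM in ESC-OB GFP+ cells. *Krt8*, a keratin of simple epithelia, rose from a mean of 3.48 to 1153 CPM (adjusted p = 8.57e-09) and *Epcam* from 99.6 to 187.1 CPM (adjusted p = 0.0014). E-cadherin (*Cdh1*) was the gene that fell, from 395.3 to 253.8 CPM (adjusted p = 0.0308), a call lost without replicate 2 or 3 of either group.

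Genes of basal and stratified epithelium were higher in 20 and lower in 1 of 23 tested, also without ESC-OB replicate 1, with a median log2 fold change of 7.61, or 6.47 with bounds. The list summed to 48.4 to 53.3 CPM in ESC and 4225 to 8365 CPM in ESC-OB GFP+ cells. *Krt5*, the keratin of basal cells, was at 404.5, 291.4 and 301.7 CPM against 3 counts over the ESC libraries (adjusted p = 8.44e-09), and *Trp63*, their transcription factor, rose from a mean of 0.135 to 35.4 CPM (adjusted p = 8.05e-08). *Krt6a*, a keratin of stratified epithelium, was at least 8450-fold higher.

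Markers of cells that are not of the airway moved in the same libraries. The hepatocyte list was higher in 14 of 15 tested and summed to 7.54 to 11.4 CPM in ESC and 240 to 868.1 CPM in ESC-OB GFP+ cells, with *Apoa1* at 169.5, 479.5 and 78.49 CPM and *Alb* at 10.95, 28.71 and 4.22 CPM. The adipocyte list was higher in 11 of 12 and summed to 93.0 to 123.5 CPM in ESC and 540.5 to 700.4 CPM in ESC-OB GFP+ cells, although *Adipoq*, which defines these cells, was at 0, 0.183 and 0 CPM. The macrophage list was higher in 12 and lower in 1 of 13. Its sum was 273 to 330 CPM in ESC and 224 to 338 CPM in ESC-OB GFP+ cells. In the latter *Cd68* was at 44.9 and *Csf1r* at 21.5 CPM, but *Cd68* also had 485 counts in ESC (ratio 2.67). Other macrophage genes were barely counted over the ESC-OB GFP+ libraries together. *Ptprc* and *Aif1* had 5 counts each, *Cd163* had 1 and *Emr1* had 18. Of the osteoblast list, 8 of 12 tested were higher and 1 lower, or 11 and 1 without ESC-OB replicate 1 and 7 and 2 without replicate 2. It summed to 1587 to 1774 CPM in ESC and 14210 to 23390 CPM in ESC-OB GFP+ cells. Whether any of these cell types holds the transcripts of the members was not tested.

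**Figure D3:**
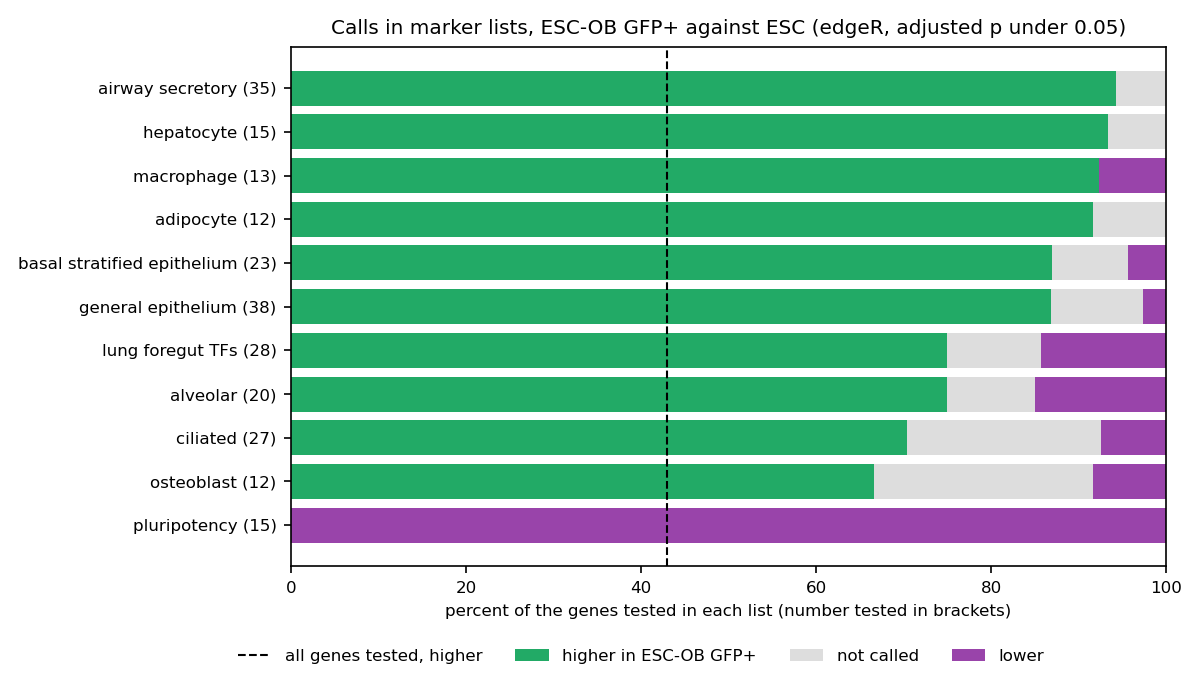
Percent of the tested genes of each marker list called higher, not called or lower in ESC-OB GFP+ cells against ESC (edgeR, adjusted p under 0.05), with the share of all tested genes called higher (43%) as a dashed line. Of the airway secretory list 33 of 35 were higher, and 10 of the 11 lists, all but pluripotency, exceed the dashed line. The lists were chosen with earlier results of these data known.

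Relatives of the members in the same gene families were counted as well. No other secretoglobin exceeded 0.161 CPM on average in ESC-OB GFP+ cells. In the BPI fold family, 3 of the 5 relatives tested were higher and 1 lower: *Lbp*, which encodes the lipopolysaccharide-binding protein of serum, rose from a mean of 0.946 to 443.4 CPM (adjusted p = 1.29e-08), *Pltp*, a phospholipid transfer protein, from 30.0 to 175.7 CPM (adjusted p = 2.19e-07), and *Bpifa6* to 0.988 CPM, while *Bpifb5* fell from 4.38 to 0.332 CPM. *Colec12*, the 1 relative of *Sftpd* among the collectins that was tested, rose to 119.6 CPM.

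All 9 carboxylesterase relatives tested were higher. For each family here, the shares over all 15417 genes tested were 43% higher and 34.7% lower. Relatives with no count in ESC, such as *Ces1e*, *Ces1f*, *Ces1g* and *Cyp2b10*, passed the filter only through ESC-OB. Higher was thus the only call open to them. *Ces2g*, *Ces2e* and *Ces2f* reached means of 51.8, 20.3 and 15.9 CPM, and the direct neighbours in class, *Ces1e*, *Ces1f* and *Ces1g*, reached 1.64, 2.94 and 2.21 CPM. Of the 18 relatives of *Cyp2f2* tested in cytochrome P450 family 2, 16 were higher and 1 lower, among them *Cyp2d22* at 57.3, *Cyp2s1* at 49.5 and *Cyp2b10* at 46.4 CPM. *Cyp2b23* fell by 6.32 on the log2 scale. *Cbr1*, *Cbr4* and *Dcxr*, carbonyl and xylulose reductases, rose to 66.4, 10.2 and 51.3 CPM, while *Cbr3* fell from 41.1 to 24.0 CPM (adjusted p = 0.00572).

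Bone and bone chips allowed tests of members on libraries that the choice of genes had not used. *Cbr2*, *Cyp2f2* and *Ces1d* have a row in the bone table and *Cbr2*, *Cyp2f2* and *Scgb3a1* in the bone chip table, and *Cbr2* and *Cyp2f2* passed the filter in both. *Cyp2f2* was lower in GFP+ (hi) cells of both sources. It passed the filter only through the GFP- libraries, so that lower was the only call open to it and the call is no independent support. *Cbr2* was called in neither source. The background was 22.1% of 12559 genes called lower and 19.5% higher in bone, and 23.1% of 12841 lower and 20.4% higher in bone chips.

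*Cyp2f2* had 10, 6 and 29 counts in bone GFP- cells, or 1.10, 0.686 and 3.39 CPM, and no count in the 3 bone GFP+ (hi) libraries, replicate 2 with its Y-linked transcripts included. It was at least 37.9-fold lower in GFP+ (hi) cells (adjusted p = 0.00277), whose libraries were also the deeper ones (21425212 to 43874837 counts against 5482065 to 6468750). In bone chips it was at 1.83, 0.952 and 1.02 CPM in GFP- cells and at 0.0947, 0.0830 and 0 CPM in GFP+ (hi) cells, 20.9-fold lower (95% counting interval 5.53 to 177, log2 fold change -4.24, SE 0.67, adjusted p = 0.0024). The groups did not overlap in either source. The call held in bone and in bone chips under all the alternatives run, each library left out included.

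*Cbr2* was at 7.81, 15.0 and 7.02 CPM in bone GFP- cells and at 1.03, 3.55 and 11.5 CPM in bone GFP+ (hi) cells, which overlapped because of GFP+ (hi) replicate 3. The difference did not pass the test (log2 fold change -0.89, SE 0.71, adjusted p = 0.346), but without that library it was -2.18 (adjusted p = 0.0111). In bone chips it was at 43.8, 86.2 and 45.6 CPM in GFP- cells and at 20.8, 39.5 and 47.9 CPM in GFP+ (hi) cells, again overlapping (log2 fold change -0.70, SE 0.37, adjusted p = 0.173). With the replicate number as a block the latter adjusted p was 0.0717.

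Macrophages also express *Cbr2* in some tissues, and their 18 listed genes summed to 679, 6045 and 500.1 CPM in bone chip GFP- replicates 1, 2 and 3, and to 978, 1255 and 709 CPM in GFP+ (hi) replicates 1, 2 and 3. In the GFP- libraries the highest *Cbr2* and the highest sum were both in replicate 2, but in the GFP+ (hi) libraries *Cbr2* was highest in replicate 3, where the sum was lowest. In bone GFP- cells the sum was 66.7, 30.7 and 30.5 CPM in replicates 1, 2 and 3, highest in replicate 1, whereas *Cbr2* was highest in replicate 2. Of the 18 genes, 0 were called by edgeR in bone chips, also 0 at an unadjusted p under 0.05 and 0 with DESeq2. Without GFP- replicate 2 the log2 fold change of *Cbr2* was -0.31 (adjusted p = 0.413), and the part of macrophages in its level was not tested.

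**Figure D4:**
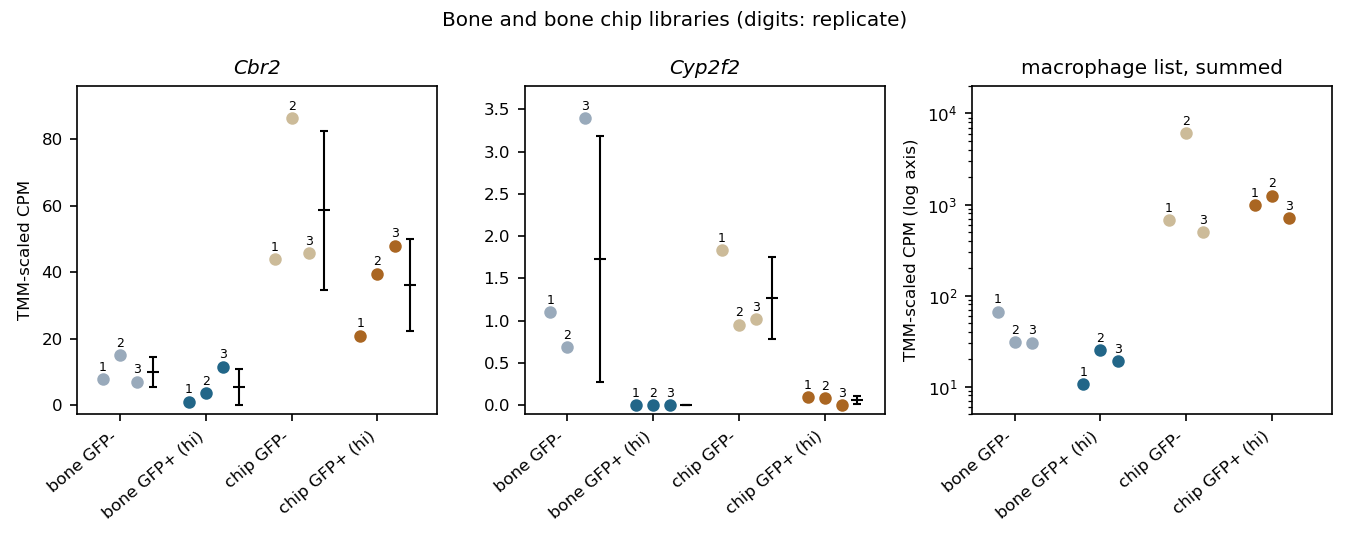
TMM-scaled CPM of *Cbr2*, *Cyp2f2* and the summed macrophage list (log axis) in each bone and bone chip library, with the replicate number above each point and, for the 2 genes, the mean with 1 SD beside the points. *Cyp2f2* is near 0 in both GFP+ (hi) groups, *Cbr2* overlaps between the groups of each source, and bone chip GFP- replicate 2 stands out at 6045 CPM in the macrophage list.

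The effect of GFP did not differ detectably between the sources for either gene. The interaction term (bone chip effect minus bone effect, 1 edgeR fit of 12 libraries) was 0.22 on the log2 scale for *Cbr2* (SE 0.88, adjusted p = 0.879) and 3.66 for *Cyp2f2* (SE 1.80, adjusted p = 0.153), where 15.6% of 13574 genes were called higher and 14.7% lower. With these standard errors, differences of several log2 units would be missed. *Ces1d* had 1, 0 and 1 counts in bone GFP- cells and none in GFP+ (hi) cells, and *Scgb3a1* had 1 count in all bone chip GFP- libraries together and 1 in each GFP+ (hi) library, too few for a test.

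On plain CPM, *Cbr2* followed the order ESC-OB GFP+ (465.3), bone chip GFP- (71.3), bone chip GFP+ (hi) (29.9), bone GFP- (14.7), bone GFP+ (hi) (3.69) and ESC (0). On this scale neighbours in the order were apart except bone chip GFP+ (hi) and bone GFP-, which overlapped, whereas on TMM-scaled CPM the GFP- and GFP+ (hi) libraries overlapped within each source, as above. *Cyp2f2* stood at 1316 CPM in ESC-OB GFP+ cells, far from bone GFP- at 2.38 and bone chip GFP- at 1.52 CPM, which overlapped with each other. Its remaining populations were all under 0.1 CPM.

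Around *Cyp2f2* in bone, the airway secretory list was higher in 4 and lower in 3 of 15 genes tested. These counts are near the shares of all 12559 genes tested, 19.5% higher and 22.1% lower. The higher genes were *Kcnk2*, *Cldn10*, *Slpi* and *Wfdc1*, at means of 7.04, 15.5, 23.5 and 15.3 CPM in GFP+ (hi) cells, and the lower ones *Bpifb1*, *Chad* and *Muc1*. The sum of 2243 to 2725 CPM in GFP- cells lay mostly in *Chad*, which encodes chondroadherin of cartilage and stood at 2332 CPM on average there. *Bpifb1* was at 35.5, 50.5 and 42.7 CPM in bone GFP- cells and at 0.192, 0.0683 and 0 CPM in GFP+ (hi) cells (log2 fold change -8.59, SE 0.46, adjusted p = 1.1e-06). Of the 19 lung and foregut factors tested, 5 were higher and 6 lower, against the same shares. Among the higher were *Cebpd* (78.4 to 323.7 CPM), *Irx3* (26.2 to 86.3 CPM), *Sox2* (0.0367 to 2.04 CPM) and *Isl1* (0.110 to 2.15 CPM). Of the pluripotency list, which also holds genes at a few CPM here, 8 of 9 tested were higher, beside the same shares. *Pou5f1*, for one, was at 0.0381 CPM on average in GFP- and 3.75 CPM in GFP+ (hi) cells. Some genes of these lists, *Pou5f1*, *Sox2* and *Isl1* among them, passed the filter only through the deeper GFP+ (hi) libraries. Higher was thus the only call open to them, and their calls are no independent support. Among the lower factors, *Sox9*, which directs cartilage formation, fell from 1284 to 42.9 CPM. *Foxa2* and *Foxa3*, which act in both endoderm and cartilage, fell from 8.26 to 0.186 and from 94.7 to 1.35 CPM. *Nkx2-1* was at 0.110 CPM or less in every bone library, and *Krt5* at 0.351 CPM or less. The part of cartilage cells in the level of *Cyp2f2* in bone was not tested.

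In bone chips, 4 airway secretory genes were higher and 8 lower of 13 tested, where 20.4% of all 12841 genes were higher and 23.1% lower. *Muc5b* was at 0.261, 0.254 and 0.139 CPM in GFP- cells and at 1.89, 5.31 and 3.51 CPM in GFP+ (hi) cells (adjusted p = 0.000884), and *Slpi*, a secreted protease inhibitor, rose from a mean of 56.9 to 630.1 CPM (adjusted p = 0.000731). *Bpifb1* fell by 2.53 on the log2 scale from a mean of 3.42 CPM (adjusted p = 0.0295). *Kcnk2*, higher in GFP+ (hi) cells of bone, was among the lower genes here, from 28.5 to 6.20 CPM (adjusted p = 0.000598). *Chad*, lower in bone, was among the higher ones, from 25.5 to 54.9 CPM (adjusted p = 0.0497). The table has no row for *Nkx2-1*, *Krt5*, *Cyp4b1* or *Reg3g*.

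The genes most like *Cbr2* and *Cyp2f2* were sought over the 18 libraries among 13725 symbols present in all 3 tables, by Pearson's correlation of log2(CPM + 1), which these points largely owe to the contrast of ESC-OB with the other populations. For *Cyp2f2* they were *Trim29*, *Cldn1*, *Tnfsf10*, *Stra6* and *Gata6* (r = 0.988 to 0.991), and for *Cbr2* they were *Irf7*, *Anxa3*, *Adamtsl5*, *Arhgef5* and *Il10rb* (r = 0.968 to 0.973). With a pseudocount of 0.1 in place of 1, 0 of the 5 genes of *Cyp2f2* and 3 of the 5 of *Cbr2* stayed, and by Spearman's rank correlation 1 and 2 did. *Bpifa1* and *Ces1d* lack a row in at least 1 table, so no such genes were sought for them.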

How the data were processed

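The study compared 6 populations of Col2.3GFP cells with 3 libraries each. Per the labels and the paper, poly-A RNA was sequenced from both ends, aligned to mm9 with STAR 2.4.2a and analysed with DESeq2 under R 3.2.2. The counts are those the authors deposited in 3 tables, as whole numbers per gene symbol and not normalized; the counting tool, strand setting and treatment of multiply aligned reads are not given in the sources used here. A fit per source was made in edgeR 4.0.16 (R 4.3.3) (filterByExpr minimum count 10, TMM factors, quasi-likelihood test, Benjamini-Hochberg adjustment over all genes tested, calls under 0.05, no block), and bone and bone chips also in 1 fit with an interaction term. Recovery was tested on simulated data. The 4 rows of the ESC table with duplicated symbols were kept apart.

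The members, the gene lists and the families were chosen with earlier results of these data known. The genes named are the members, relatives at 1 CPM or more in a population, a fixed set of defining markers, and up to 4 genes per list and direction with the largest changes among those at 1 CPM or more; other examples (*Foxa1*, *Foxa2*, *Ager*, *Bpifb1*, *Krt8*, *Ibsp*, *Sp7* and *Bglap* among them) were chosen after their values were seen. A gene that this rule also names is not reported here. Folds are ratios of TMM-scaled counts summed over libraries with exact (Clopper-Pearson) 95% intervals, which cover counting error only, and where a group had no count they are bounds at 3 counts over the group. RPKM used the union of exons of GENCODE vM1. Residuals of libraries with the same number correlated at 0.158, 0.329 and 0.396 in bone chips, and at -0.022 to 0.03 in bone and ESC. Whether the numbers pair the bone chip libraries is not stated in the sources used here. The main fits took no block, and the block was run as an alternative. Alternatives were DESeq2 1.42.0, RLE factors, either no low-count filter or one of 1 CPM in 3 libraries, the replicate block and each library left out. Python 3.11.15, pandas 2.3.3 and matplotlib 3.10.9 were used for tables and figures.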

Additional observations from a re-analysis of the deposited data

Results flagged for a closer look

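The effect of GFP differed between bone chips and bone in 4 relatives of the members, by the interaction term of an edgeR fit of 12 libraries with Benjamini-Hochberg adjusted p under 0.05. Of all 13574 genes tested, 15.6% were called higher and 14.7% lower by that term, so such calls were common among all genes. *Bpifb1* was lower in GFP+ (hi) cells of both sources, by 6.05 log2 units less in bone chips (SE 1.15, adjusted p = 0.00182). *Lbp* was at 33.1 CPM in bone GFP- and 1.91 in bone GFP+ (hi) cells and at 139.1 and 69.3 CPM in bone chips, a difference of the effects of 3.10 (SE 0.68, adjusted p = 0.00447). *Cbr3* was higher in GFP+ (hi) cells of bone (log2 fold change 1.22, adjusted p = 0.0382) and lower in those of bone chips (-0.99, adjusted p = 0.0134), a difference of -2.21 (SE 0.42, adjusted p = 0.00171). *Cyp2c44*, with 4 counts in all bone libraries, differed by 5.97 (SE 1.99, adjusted p = 0.0442), which the replicate block took to an adjusted p of 0.0517. That call was also lost when any of 9 of the 12 libraries was left out, and without bone GFP- replicate 3, which held all 4 counts, the difference was 1.51.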

How the results depend on the processing

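For *Cyp2f2* and *Cbr2*, the number of list genes called in each source and the median of the members in ESC-OB, 64 of 65 values under other tools, scalings, filters and the replicate block stayed on the same side of the threshold, within 1.5 times the count or within the spread between libraries. The exception was the median log2 fold change of the 7 members past the filter in ESC-OB, 14.63 with edgeR and 12.91 with DESeq2, neither of which is a bound, since 4 of these members have no count in ESC.

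With each library left out, the *Cyp2f2* log2 fold change was -8.23 to -6.91 in bone and -4.67 to -3.68 in bone chips, and the difference between them 2.75 to 4.20. For *Cbr2* these were -2.18 to -0.39, -0.95 to -0.31 and -0.31 to 1.56, the last of which changed sign in 5 of 12 cases, never past the threshold, while its bone value passed without GFP+ (hi) replicate 3. The fitted change of *Cyp2f2* in ESC-OB, with 1 count in ESC, was 14.5 to 17.36. List genes called higher and lower were 182 and 27 in ESC-OB (181 to 191 and 24 to 26 with a library left out), 40 and 43 in bone (34 to 42 and 39 to 45) and 30 and 38 in bone chips (28 to 36 and 31 to 42).

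With the replicate block, *Cyp2f2* was at -7.69 in bone (adjusted p = 0.0134) and -4.25 in bone chips (adjusted p = 0.00363), *Cbr2* at -1.44 and -0.70, no call of either gene changed, and list genes called higher and lower were 185 and 26, 39 and 39, and 31 and 38 in ESC-OB, bone and bone chips. Members without a row in bone or bone chips have no level there, and the bone GFP- libraries are among the shallowest. By the longest transcript in place of the union of exons, *Bpifa1* was at 485.4 RPKM in ESC-OB GFP+ cells.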
